A study of Mus musculus with 9 samples.

Results

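The 10 genes described here encode the RNA-binding proteins best known for setting how long cytokine mRNAs last in macrophages. They were taken by symbol from the deposited expression table, and all 10 were among its 55401 genes and among the 12819 genes that passed the filter for testing (a mean of at least 1 TPM). TPM is a transcript's share of a library after correction for its length, scaled to a common total, so levels can be compared between genes. The members were *Zfp36*, *Zfp36l1* and *Zfp36l2* (the tristetraprolin family), *Zc3h12a* and *Zc3h12c* (Regnase-1 and Regnase-3), *Rc3h1* and *Rc3h2* (Roquin-1 and Roquin-2), *Hnrnpd* (AUF1), *Khsrp* (KSRP) and *Elavl1* (HuR).

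The cells were RAW264.7, a macrophage line from a male mouse tumour induced by Abelson murine leukemia virus, labelled WT. DMSO cells received the solvent, LPS cells received DMSO with lipopolysaccharide, a bacterial wall component, and LPS + Ska cells received lipopolysaccharide with skatole, an indole compound. Each group had 3 samples, numbered 5, 6 and 7, treated for 24 h according to the labels. The results text of the study also gives 24 h, whereas its methods section gives a longer time. The labels give no skatole dose and name no DMSO for LPS + Ska, so skatole and any difference in solvent cannot be told apart. No group received skatole without LPS. As a transformed line, the cells model tissue macrophages only in part, and nothing states that the samples were separate cultures. P-values therefore measure the spread between these samples, which may be technical. In bulk RNA, fewer cells of a type and less RNA per cell cannot be told apart.

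Cytokine mRNAs carry destabilising elements in their 3′ UTR. Tristetraprolin and its relatives bind AU-rich elements and recruit the CCR4-NOT deadenylase, which shortens the poly(A) tail and opens the mRNA to decapping or to the exosome. Regnase proteins cut stem-loops in their targets, Roquin proteins bind stem-loops and recruit deadenylases, and AUF1 and KSRP are further AU-rich element binding proteins that promote decay. HuR binds similar U-rich sequence and protects the mRNA. In macrophages, tristetraprolin restrains *Tnf* mRNA, Regnase-1 restrains *Il6* mRNA, and both proteins are themselves induced by LPS.

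The AU-rich core was shown first because several members carry it as well as their targets. The heptamer TATTTAT was searched on the sense strand, overlaps allowed, in the 3′ UTR of the transcript with the longest coding sequence of each gene (GENCODE M21, build GRCm38). It occurred in 7 of 10 members and in 2788 of 10285 tested genes with a 3′ UTR (27.1%). The median 3′ UTR was 2628 bases in members and 930 bases in all those genes, so members also offered more sequence to match. The heptamer occurred 8 times in *Elavl1*, 3 times in *Zfp36*, *Zfp36l1*, *Zfp36l2* and *Rc3h2*, and 2 times in *Zc3h12c* and *Rc3h1*, and had no match in *Zc3h12a*, *Hnrnpd* or *Khsrp*. The 30 bases with the most heptamers are given for 3 members and for 3 cytokines, 5′ to 3′ on the gene's strand, with every base of a heptamer in capitals. A match is a description of the letters and not a site of binding. In order, the windows are at chr7:28376958-28376987 (minus strand), chr12:80108421-80108450 (minus), chr8:4285776-4285805 (minus), chr17:35199677-35199706 (minus), chr2:129364801-129364830 (minus) and chr5:30019728-30019757 (plus).
Zfp36: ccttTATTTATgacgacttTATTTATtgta
Zfp36l1: ttatcaaaacgTATTTATtgccaaactatg
Elavl1: TATTTATTTATTTATTTATtttTATTTATt
Tnf: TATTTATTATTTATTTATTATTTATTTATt
Il1b: ttaccTATTTATTTATgTATTTATtgattg
Il6: tttatgattgaTATTTATtatttttatgaa
The *Elavl1* window held 5 heptamers, as many as the *Tnf* window, whereas the *Zfp36* window held 2 and the *Zfp36l1* and *Il6* windows 1 each.

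A property of the columns bears on every test. In LPS (17950 genes with 3 values above 0) and in LPS + Ska (17658 genes), the value of replicate 5 was midway between those of replicates 6 and 7 without exception (tolerance 1e-05 TPM), as in 10 of 15721 DMSO genes (0.0636%). No more than 2 of the 3 values of a gene can thus be independent in either LPS-treated group. Refitting with 2 values per group, spaced about replicate 5 by 0.5 times its distance from replicate 6, changed no member call. These 2 values lie closer together than replicates 6 and 7 do. Between LPS + Ska and LPS no member was called before the refit, so none could be lost there. In that comparison the limma adjusted p of *Zfp36* and *Khsrp* rose above 0.05. TPM keeps no sequencing depth, so depth is unknown. Columns summed to between 999895 and 1000145 TPM, with 12498 to 13012 genes at 1 TPM or more. Of 8 macrophage markers, 7 reached 1 TPM in each group and *Mrc1*, encoding the mannose receptor, did not. Their summed level was 12282 to 13245 TPM in DMSO, 7239 to 7639.8 TPM in LPS and 13538 to 13831 TPM in LPS + Ska, most of it *Lyz2*. None of 14 markers of T cells, B cells, fibroblasts, chondrocytes, epithelium, endothelium or neutrophils reached 1 TPM (0 of 14 in each group), and 11, 9 and 12 of them respectively were at 0 in every column.

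With LPS, the regulators changed in both directions. *Zfp36* and *Zfp36l2* fell to about the same extent, *Zc3h12a*, *Zc3h12c* and *Elavl1* rose, and the other 5 were not called. A gene was called at a Benjamini-Hochberg adjusted p below 0.05 in limma, taken over all tested genes, with a fold change above 1.5 or below 0.67 on the TPM + 1 scale. Of all tested genes, 12.7% were called higher and 20.0% lower by these limits, and the members' counts, 3 of 10 higher and 2 of 10 lower, are read against that. The share called lower was that of all genes, and the share called higher rests on 3 genes. Calls in both directions are therefore not particular to the members. The median change of the members was 0.39 on the log2 scale, against -0.07 for all tested genes, and 9 of 10 members had columns that did not overlap between the groups, as did 68.9% of all tested genes.

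**Figure D1:**
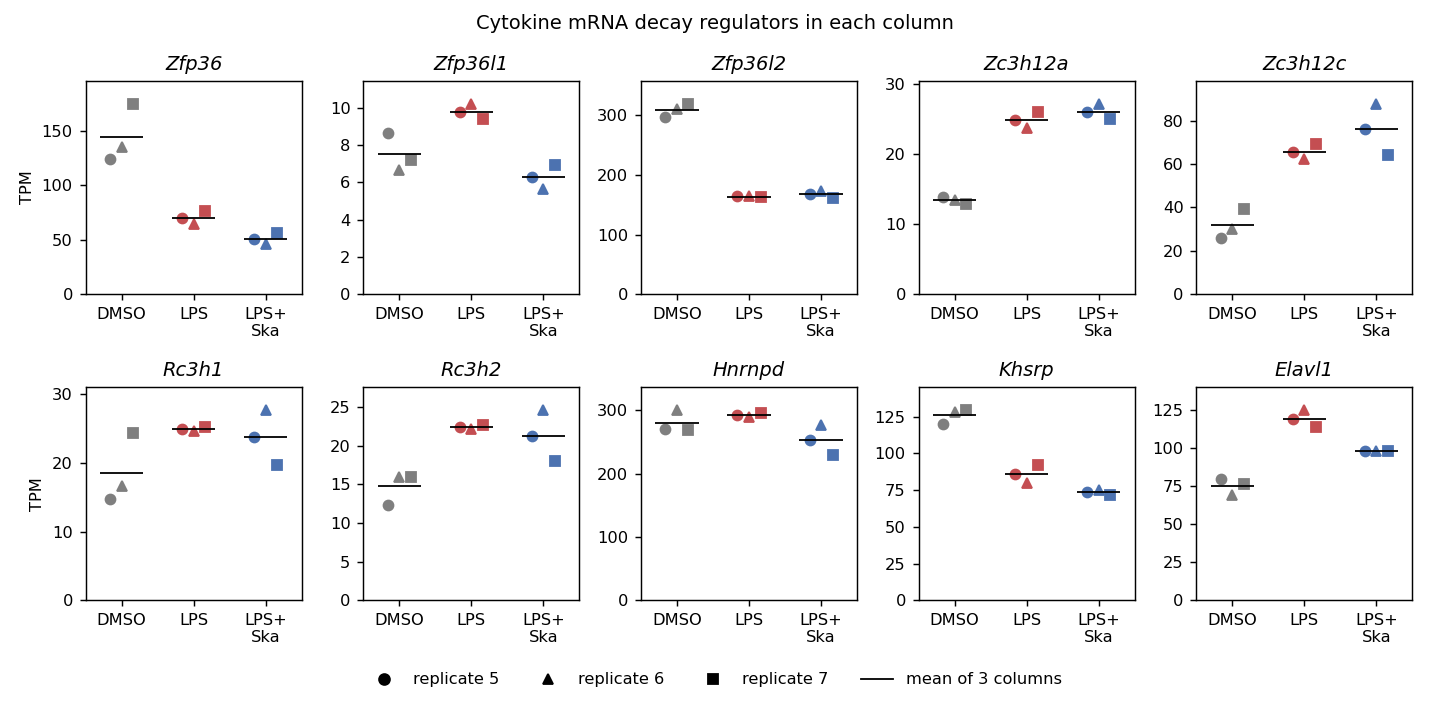
TPM of the 10 regulators in each of the 9 columns, by group, with circle, triangle and square for replicates 5, 6 and 7 and a line at the mean of 3 columns; each panel has its own axis from 0. *Zfp36* and *Zfp36l2* lie lower and *Zc3h12a*, *Zc3h12c* and *Elavl1* higher in every LPS column than in any DMSO column.

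*Zfp36* encodes tristetraprolin, the founding AU-rich element decay factor (chr7:28376784-28380253, minus strand). Its level was 124, 135 and 175 TPM in DMSO, 70.1, 64.2 and 76.1 TPM in LPS, and 51.0, 45.9 and 56.0 TPM in LPS + Ska (replicates 5, 6 and 7). The groups did not overlap, and DMSO was highest and LPS + Ska lowest. LPS lowered it by a log2 fold change of -1.02 (SE 0.13, adjusted p = 1.2e-04 by limma), or to 0.49 of the DMSO level.

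*Zfp36l2* encodes the relative with the highest mRNA level of the family here. It stood at 297, 311 and 319.5 TPM in DMSO, 164, 164 and 163 TPM in LPS, and 168, 174 and 162 TPM in LPS + Ska. All 6 LPS-treated columns lay far below all 3 DMSO columns, and the 2 LPS-treated groups overlapped. The log2 fold change with LPS was -0.91 (SE 0.05, adjusted p = 6.4e-07 by limma). *Zfp36l1*, the least abundant member, was at 8.66, 6.66 and 7.21 TPM in DMSO and 9.79, 10.2 and 9.37 TPM in LPS. It thus lay higher in all LPS columns, with a log2 fold change of 0.35 (SE 0.12, adjusted p = 0.026), inside the fold limits, and the adjusted p was 0.08 without DMSO replicate 6.

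Summed over the 3 genes, the family came to 461 ± 36.8 TPM in DMSO, 244 ± 4.92 TPM in LPS and 225 ± 0.386 TPM in LPS + Ska (SD, n = 3, of which 2 values are independent in the LPS-treated groups). *Zfp36l2* supplied 67.2% of the sum in DMSO, 67.2% in LPS and 74.6% in LPS + Ska. *Zfp36* supplied 31.2%, 28.8% and 22.6%, and its share in LPS + Ska (20.3% to 24.9%) lay below every column of the other groups. The share of *Zfp36l1* was 1.64%, 4.02% and 2.79%.

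The Regnase genes moved the other way. *Zc3h12a* encodes the endonuclease Regnase-1, and its level was 13.9, 13.4 and 12.8 TPM in DMSO, 24.8, 23.6 and 26.0 TPM in LPS, and 26.0, 27.1 and 24.9 TPM in LPS + Ska. DMSO lay below every LPS-treated column, and the LPS-treated groups overlapped. LPS raised it by 0.84 on the log2 scale (SE 0.07, adjusted p = 1.1e-05 by limma).

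*Zc3h12c*, encoding the related Regnase-3, was the more abundant of the pair. It was at 26.0, 30 and 39.4 TPM in DMSO, 65.7, 62.4 and 69.1 TPM in LPS, and 75.9, 87.7 and 64.2 TPM in LPS + Ska, with the same layout of groups. Its log2 fold change with LPS was 1.04 (SE 0.15, adjusted p = 2.8e-04 by limma). The sum of the pair was 45.2 ± 6.37 TPM in DMSO, 90.5 ± 4.57 TPM in LPS and 102 ± 12.9 TPM in LPS + Ska. The ratio of the tristetraprolin family to the Regnase pair was accordingly 9.61 to 10.8 in DMSO, 2.61 to 2.78 in LPS and 1.97 to 2.53 in LPS + Ska, with no overlap among the 3 groups.

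The Roquin genes encode RING-finger proteins that bind stem-loops. *Rc3h1* was at 14.8, 16.6 and 24.3 TPM in DMSO, 24.9, 24.6 and 25.3 TPM in LPS, and 23.7, 27.7 and 19.7 TPM in LPS + Ska. DMSO replicate 7 came close to the LPS columns, and the log2 fold change of 0.44 with LPS did not pass (SE 0.17, adjusted p = 0.051). Without that column it was 0.64 with an adjusted p of 0.0038, which is a call.

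*Rc3h2* was at 12.3, 16 and 16 TPM in DMSO, 22.4, 22.1 and 22.7 TPM in LPS, and 21.3, 24.6 and 18.0 TPM in LPS + Ska. All LPS-treated columns lay above DMSO. The log2 fold change with LPS was 0.58 (SE 0.13, adjusted p = 0.0036 by limma), just inside the fold limit, and it passed that limit without DMSO replicate 6 (0.64), without DMSO replicate 7 (0.64) or without LPS replicate 6 (0.59). It also passed with a pseudocount of 0.1 (0.61), with median-ratio scaling (0.66) and with TPM rescaled after removal of mitochondrial-genome and ribosomal protein genes (0.62), each of which called 4 members higher in place of 3.

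Among the remaining AU-rich element binding proteins, *Hnrnpd* did not pass the test and *Khsrp* was lower with LPS. *Hnrnpd* was at 271, 300.2 and 269 TPM in DMSO, 292, 289 and 295 TPM in LPS, and 253, 276 and 229.6 TPM in LPS + Ska. DMSO overlapped both other groups, and the log2 fold change with LPS was 0.06 (95% interval -0.10 to 0.22, adjusted p = 0.48). *Khsrp* was at 119.9, 128 and 129.5 TPM in DMSO, 86.1, 79.9 and 92.3 TPM in LPS, and 73.5, 75.4 and 71.7 TPM in LPS + Ska, with no overlap among the groups. Its log2 fold change with LPS was -0.54 (SE 0.06, adjusted p = 8.3e-05), inside the fold limits, and -0.59, which is a call, without LPS replicate 7.

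*Elavl1*, the stabiliser, was at 79.4, 68.9 and 76.7 TPM in DMSO, 119, 125 and 114 TPM in LPS, and 98.2, 98.3 and 98.1 TPM in LPS + Ska. The 3 groups did not overlap, with LPS + Ska between the others. The log2 fold change with LPS was 0.66 (SE 0.06, adjusted p = 2.4e-05 by limma). *Zfp36* and *Elavl1* thus moved in opposite directions, and the ratio of *Zfp36* to *Elavl1* was 1.56, 1.95 and 2.28 in DMSO, 0.588, 0.514 and 0.67 in LPS, and 0.519, 0.467 and 0.571 in LPS + Ska. DMSO stood above both LPS-treated groups, and these overlapped. The ratio of *Khsrp* to *Elavl1* had group means of 1.69, 0.725 and 0.749, in the same layout.

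**Figure D2:**
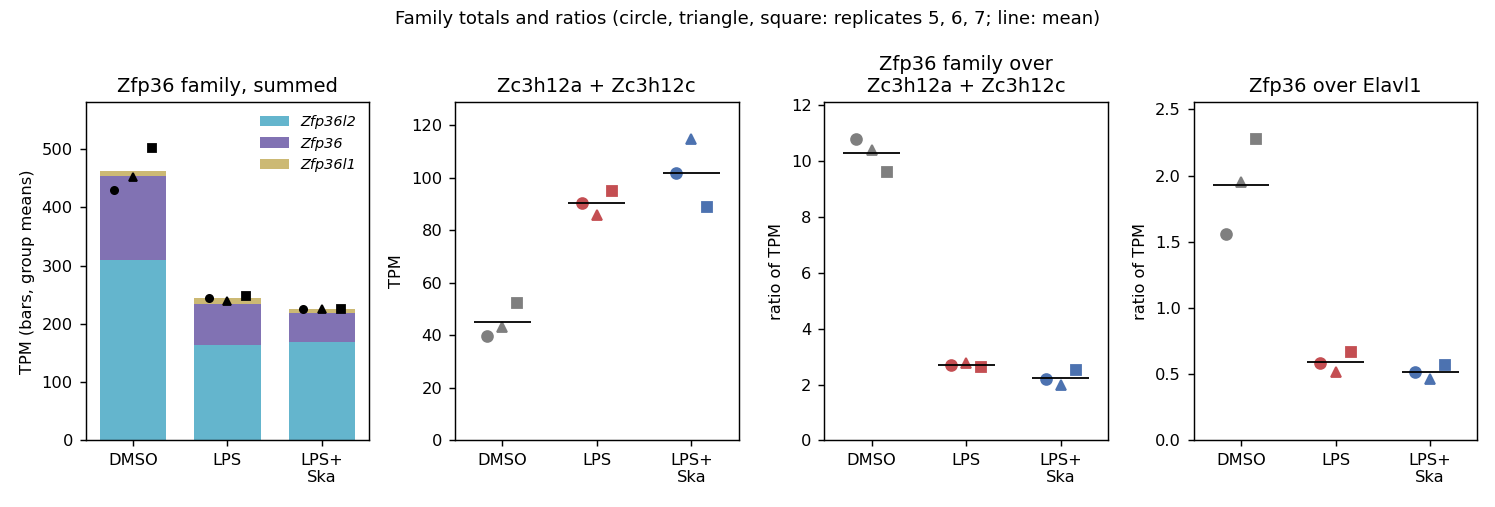
Summed TPM of the tristetraprolin family (stacked bars, group means, with the column sums as points), summed TPM of *Zc3h12a* and *Zc3h12c*, the ratio of those sums, and the ratio of *Zfp36* to *Elavl1*, by group with replicates 5, 6 and 7 as circle, triangle and square and a line at the mean. The ratio of family to Regnase pair lies between 9.61 and 10.8 in DMSO and between 1.97 and 2.78 in the 6 LPS-treated columns.

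With skatole added to LPS, no member was called in either direction (0 of 10 higher and 0 of 10 lower), where 3.35% of all tested genes were called higher and 6.14% lower. By adjusted p alone, 4 of 10 members were lower and 0 of 10 higher, against 19.7% and 8.89% of all tested genes, and 5 members passed at an unadjusted p below 0.05, as did 40.5% of all tested genes. The median change was -0.15 on the log2 scale in the members and -0.10 in all tested genes. The columns of 5 of 10 members did not overlap, and neither did those of 51.2% of all tested genes. The counts called, passing unadjusted and without overlap are thus near those of all genes.

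The 4 members that passed by adjusted p were *Zfp36l1*, *Zfp36*, *Elavl1* and *Khsrp*. *Zfp36l1* was at 6.29, 5.62 and 6.95 TPM in LPS + Ska, below every LPS column, with a log2 fold change of -0.57 (95% interval -0.83 to -0.31, adjusted p = 0.0068 by limma). It crossed the fold limit when replicate 7 of LPS (-0.60) or of LPS + Ska (-0.63) was left out, and its adjusted p ranged from 0.0041 to 0.037 over all alternatives. *Zfp36* had a log2 fold change of -0.45 (95% interval -0.74 to -0.17, adjusted p = 0.027). Its adjusted p was 0.069 with 2 values per LPS-treated group, 0.065 with no filter, 0.081 and 0.091 without LPS replicate 5 or 7, and 0.078 and 0.061 without LPS + Ska replicate 5 or 6.

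*Elavl1* had a log2 fold change of -0.28 (95% interval -0.42 to -0.13, adjusted p = 0.012 by limma) and *Khsrp* one of -0.22 (95% interval -0.37 to -0.08, adjusted p = 0.03). These sizes must be read against a shift of all genes. Median-ratio scaling moved the median of all tested genes from -0.10 to -0.00 in LPS + Ska vs LPS and from -0.18 to -0.01 in LPS + Ska vs DMSO. It moved the share of calls that were higher from 35.3% to 52.0% and from 31.0% to 48.4%. With that scaling, *Elavl1* stood at -0.18 (adjusted p = 0.081), *Khsrp* at -0.12 (adjusted p = 0.12) and *Zfp36* at -0.36 (adjusted p = 0.061), whereas *Zfp36l1* stood at -0.48 (adjusted p = 0.02). The adjusted p of *Elavl1* was 0.055 and 0.052 without LPS replicate 5 or 6 and 0.054 without LPS + Ska replicate 5. That of *Khsrp* was 0.1 and 0.11 without LPS replicate 5 or 7, 0.1 and 0.064 without LPS + Ska replicate 5 or 7, and 0.065 with 2 values per LPS-treated group. *Zfp36l1* was thus the only one of the 4 whose adjusted p stayed below 0.05 in all alternatives run.

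The other 6 members did not pass. *Hnrnpd* came nearest, at -0.21 (95% interval -0.37 to -0.05, adjusted p = 0.054), with the LPS + Ska columns below the LPS columns, and its adjusted p was 0.012 without LPS + Ska replicate 6. The intervals bound the difference most closely for *Zfp36l2* (0.04, from -0.07 to 0.15) and *Zc3h12a* (0.07, from -0.09 to 0.23). They were wider for *Zc3h12c* (0.20, from -0.14 to 0.53), *Rc3h1* (-0.08, from -0.47 to 0.30) and *Rc3h2* (-0.08, from -0.37 to 0.21). The signs of *Rc3h1* and *Rc3h2* were positive with median-ratio scaling and without LPS + Ska replicate 7.

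**Figure D3:**
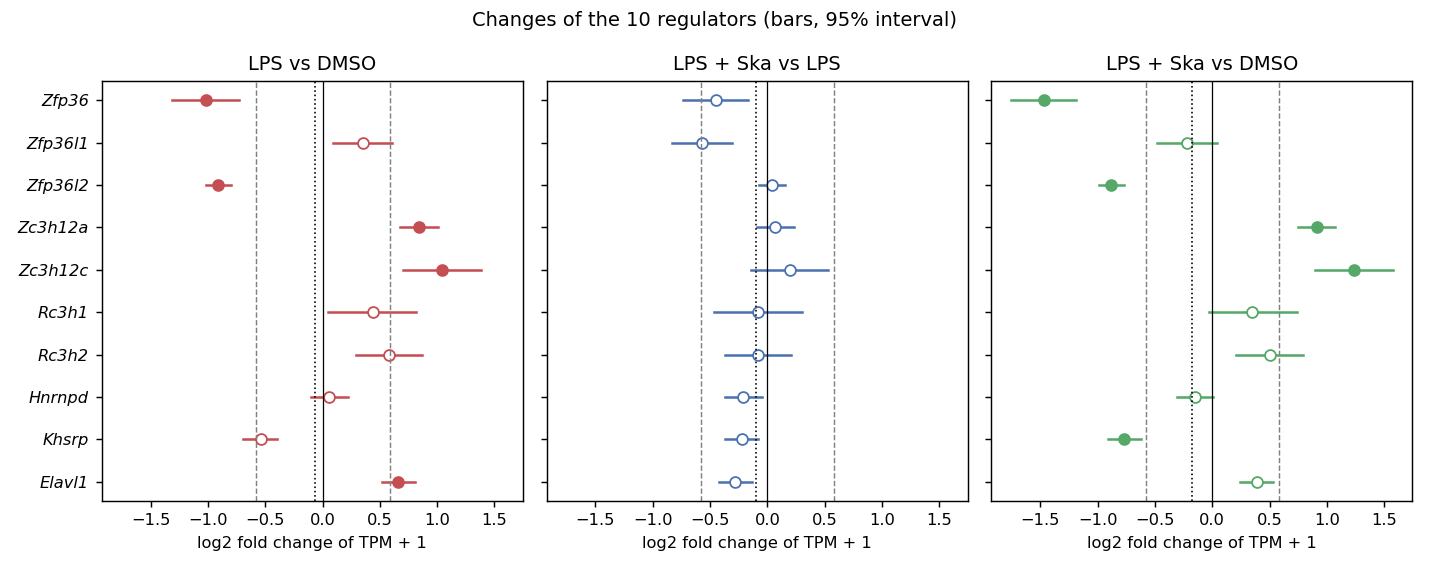
Log2 fold change of TPM + 1 for the 10 regulators in the 3 comparisons, with 95% intervals; filled points were called, dashed lines mark the fold limits of 0.67 and 1.5, and the dotted line is the median of all tested genes. In LPS + Ska vs LPS all points are open, the lowest being *Zfp36l1* at -0.57 and the highest *Zc3h12c* at 0.20.

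Against DMSO, the LPS + Ska cells had 2 of 10 members called higher and 3 of 10 lower, where 11.4% of all tested genes were called higher and 25.3% lower. This comparison shares its DMSO columns with LPS vs DMSO and its LPS + Ska columns with LPS + Ska vs LPS. *Zc3h12c* (log2 fold change 1.24, adjusted p = 8.3e-05) and *Zc3h12a* (0.91, adjusted p = 5.5e-06) were higher. *Zfp36* (-1.47, adjusted p = 9.9e-06), *Zfp36l2* (-0.88, adjusted p = 8.0e-07) and *Khsrp* (-0.77, adjusted p = 8.0e-06) were lower. *Elavl1*, called with LPS, was at 0.39 here (adjusted p = 5.9e-04), inside the fold limits, and *Rc3h2* at 0.50 (adjusted p = 0.0072). *Rc3h1* (0.35), *Zfp36l1* (-0.22) and *Hnrnpd* (-0.15) had adjusted p of 0.098, 0.12 and 0.095, and *Rc3h2* was called at 0.61 without LPS + Ska replicate 7. *Zfp36* in LPS + Ska was therefore at 0.36 of its DMSO level, and *Zfp36l2* at 0.54.

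The order of abundance changed with LPS. In DMSO, *Zfp36l2* (309 TPM) and *Hnrnpd* (280.1 TPM) led and overlapped each other, followed by *Zfp36* (145 TPM) and *Khsrp* (126 TPM), which also overlapped, and then by *Elavl1* (75.0 TPM) and *Zc3h12c* (31.8 TPM). *Rc3h1*, *Rc3h2* and *Zc3h12a* came next (18.6, 14.8 and 13.4 TPM), each overlapping its neighbour, and *Zfp36l1* (7.51 TPM) was last. In LPS the order was *Hnrnpd* (292 TPM), *Zfp36l2* (164 TPM), *Elavl1* (119 TPM), *Khsrp* (86.1 TPM), *Zfp36* (70.1 TPM) and *Zc3h12c* (65.7 TPM), where only the last pair overlapped. In LPS + Ska, *Zc3h12c* (75.9 TPM) overlapped *Khsrp* (73.5 TPM) and stood above *Zfp36* (51.0 TPM) in every column. Among all tested genes, *Zfp36* stood at the 91.3 percentile in DMSO, 81.1 in LPS and 75.7 in LPS + Ska, and *Zc3h12c* at 60.3, 79.8 and 83.1.

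The genes nearest to each called member were found by the root mean square difference over 9 columns of log2(TPM + 1), each gene centred on its DMSO mean. Nearest to *Zfp36* were *Rbm47* (0.120) and *Eepd1* (0.123), and nearest to *Zfp36l2* were *Mpp1* (0.027) and *Aacs* (0.038). *Zc3h12a* had *Yaf2* (0.039) and *Rpa3* (0.055), *Zc3h12c* had *Gm6341* (0.075) and *Ell2* (0.090), *Elavl1* had *Bdp1* (0.058) and *Mmachc* (0.062), and *Khsrp* had *Nfya* (0.040) and *Bag6* (0.047). *Gm6341* was near the floor, with means of 0.404, 1.61 and 2.28 TPM in DMSO, LPS and LPS + Ska. Its nearness thus depends on the pseudocount of 1. The profile of *Zfp36* had the most distant neighbours of these 6 members.

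The decay machinery that the regulators recruit was examined as lists of deadenylation, decapping and exosome genes. Their counts, and those of the further lists below, are read against the shares of all tested genes given above. Of 19 deadenylation genes, 2 were called higher and 1 lower with LPS (median 0.24). *Cnot7*, a catalytic deadenylase of CCR4-NOT, was at 77.0, 87.7 and 87.2 TPM in DMSO and 162 TPM in each LPS column, a log2 fold change of 0.94 (SE 0.07, adjusted p = 5.5e-06 by limma). *Cnot6*, another catalytic subunit, was the second (0.74). *Btg2*, an antiproliferative partner of CCR4-NOT, fell from 14.4, 16.2 and 18.2 TPM to 6.20, 5.07 and 7.33 TPM (-1.27, SE 0.13, adjusted p = 3.9e-05).

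With skatole added, 0 of 19 deadenylation genes were called higher and 4 lower (median -0.12): *Pan2*, *Cnot3*, *Cnot4* and *Parn*. With median-ratio scaling the count lower was 1 of 19 in place of 4. *Pan2*, the catalytic subunit of the PAN2-PAN3 deadenylase, went from 10.7, 12.2 and 9.22 TPM in LPS to 5.80, 6.09 and 5.51 TPM (-0.78, SE 0.15, adjusted p = 0.0048). *Cnot3*, a subunit of CCR4-NOT, went from 55.2, 55.7 and 54.8 TPM to 34.8, 37.8 and 31.8 TPM (-0.65, SE 0.08, adjusted p = 6.0e-04 by limma). With median-ratio scaling *Cnot3* stood at -0.56, inside the fold limit. Both were further below DMSO, with *Pan2* at -1.33 and *Cnot3* at -1.06. Against DMSO, 1 of 19 was called higher and 4 lower (median 0.09).

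Of 16 decapping and 5′-to-3′ decay genes, 1 was called higher and 2 lower with LPS (median 0.07). With median-ratio scaling the balance turned to 3 higher and 1 lower, and with TPM rescaled after removal of mitochondrial-genome and ribosomal protein genes it was 3 and 2. *Dcp2*, the decapping enzyme, rose from 15.1, 15.8 and 17.1 TPM to 27.1, 25.4 and 28.8 TPM (0.73, SE 0.10, adjusted p = 1.8e-04). *Lsm4*, a subunit of the Lsm ring, was lower (-0.67, adjusted p = 8.1e-04), as was *Lsm7* (adjusted p = 0.037). The count lower was 1 in place of 2 with no filter, with no intensity trend, and without DMSO replicate 6, DMSO replicate 7, LPS replicate 5 or LPS replicate 6, and the count higher was 2 in place of 1 without DMSO replicate 5, DMSO replicate 6 or LPS replicate 6. With skatole added, 0 of 16 were higher and 1 lower (median -0.27), namely *Dcp1b*, a decapping activator, at 7.29, 6.87 and 7.72 TPM in LPS and 4.39, 3.88 and 4.89 TPM in LPS + Ska (-0.63, adjusted p = 0.0033). It stood inside the fold limit without LPS + Ska replicate 6 (-0.56) and with median-ratio scaling (-0.54). Against DMSO, 0 of 16 were higher and 3 lower (median -0.20), among them *Dcp1b* (-0.87) and *Lsm7* (-0.65, adjusted p = 0.032). *Lsm7* lost that call without DMSO replicate 5, 6 or 7 (adjusted p = 0.11, 0.062 and 0.052), without LPS + Ska replicate 5 or 6 (0.06 and 0.091) and with median-ratio scaling (0.12).

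Of 15 exosome and cofactor genes, 0 were called higher and 3 lower with LPS (median -0.06), 0 in either direction with skatole added (median -0.19), and 1 higher and 2 lower against DMSO (median -0.06). *Exosc5*, a subunit of the exosome barrel, fell from 155, 139.6 and 155 TPM to 75.4, 71.7 and 79.1 TPM with LPS (-0.98, adjusted p = 3.2e-04). *Skiv2l*, the helicase that feeds the cytoplasmic exosome, was at -0.80 with LPS and at -1.17 in LPS + Ska against DMSO (adjusted p = 2.3e-05 and 2.0e-06). The *Exosc6* value of -2.05 with LPS rests largely on DMSO replicate 5, at 48.3 TPM beside 5.10 and 2.41 TPM in the other DMSO columns, and was -0.91 without it. Its call was lost in each fit that left out an LPS-treated column (adjusted p = 0.05 to 0.11). The count lower with LPS was also 2 in place of 3 with no filter, median-ratio scaling, the compared groups alone or no intensity trend. The same count was found with 2 values per LPS-treated group.

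Among 29 other RNA-binding regulators, 22 were tested, of which 2 were called higher and 3 lower with LPS (median 0.07), 0 higher and 1 lower with skatole added (median -0.24), and 0 higher and 6 lower against DMSO (median -0.19). Under both rescalings the balance with LPS turned to 4 higher and 3 lower, and median-ratio scaling gave 3 higher and 4 lower against DMSO. *Hnrnpab* and *Hnrnpa0*, relatives of *Hnrnpd*, and *Upf1*, the nonsense-mediated decay helicase, were lower with LPS (-0.85, -0.81 and -0.66, adjusted p = 0.0012, 4.6e-05 and 2.3e-05). *Arid5a*, which encodes an RNA-binding protein that protects *Il6* mRNA from Regnase-1, was at 0.851, 0.904 and 0.980 TPM in DMSO, 1.98, 2.37 and 1.59 TPM in LPS, and 0.512, 0.0274 and 0.997 TPM in LPS + Ska. LPS lay above both other groups, which overlapped. *Arid5a* passed the filter only through its LPS columns, so its calls are not independent of the filter. Its change was 0.63 on the log2 scale with LPS (adjusted p = 0.043) and -1.02 with skatole added (adjusted p = 0.012). The first was lost without LPS replicate 5 or 6 or any DMSO column (adjusted p up to 0.13) and without LPS + Ska replicate 5 (0.067), and the second without LPS replicate 5 (adjusted p = 0.052).

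Tristetraprolin is inactivated by phosphorylation through p38 and MK2, so a list of upstream kinases and phosphatases was also examined. Of 17 genes, 16 were tested, with 1 higher and 3 lower with LPS (median -0.04), 1 higher and 0 lower with skatole added (median -0.02), and 2 higher and 3 lower against DMSO (median -0.10). *Dusp1*, the phosphatase that switches off p38 and is a tristetraprolin target itself, was at 47.8, 51.2 and 72.3 TPM in DMSO, 10.3, 10.1 and 10.5 TPM in LPS, and 18.6, 18.4 and 18.8 TPM in LPS + Ska. The 3 groups did not overlap. The log2 fold change was -2.34 with LPS (SE 0.13, adjusted p = 9.4e-07 by limma) and 0.80 with skatole added (SE 0.13, adjusted p = 0.0027). *Irak1*, a kinase of Toll-like receptor signalling, was at -1.12 with LPS (adjusted p = 7.7e-06) and -1.15 in LPS + Ska against DMSO, and *Mapk14*, encoding p38 alpha, was at -0.68 and -0.73.

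The target list held 33 mRNAs known to be under the control of these regulators, of which 27 were tested. With LPS, 21 were called higher and 2 lower, where 12.7% and 20.0% of all tested genes were. The list was chosen by hand with earlier results of these data known. The excess over all genes therefore describes the list and is not a test of the targets. The median was 1.66, or 1.30 without the 3 genes (*Csf3*, *Il6* and *Lcn2*) listed at 0 in every DMSO column, against -0.07 for all tested genes. *Il1a*, *Il1b* and *Lif*, kept in the value of 1.30, had DMSO means of 0.0859, 0.155 and 0.315 TPM. Like the genes at 0, they passed the filter only through LPS-treated columns, so their calls are not independent of the filter. *Csf3*, encoding G-CSF, was at 42.1, 43.1 and 41.1 TPM in LPS, and *Ccl2*, encoding a monocyte chemokine, rose from 4.64, 6.30 and 5.82 TPM to 234, 241 and 226 TPM (5.16, SE 0.10, adjusted p = 1.7e-09). *Tnf* was at 53.1, 52.8 and 103 TPM in DMSO and 210.4, 209 and 212 TPM in LPS (1.65, SE 0.21, adjusted p = 1.3e-04). *Nfkbiz*, encoding an inducible co-activator of *Il6* transcription, stood at 1.82 and *Ptgs2*, encoding cyclooxygenase-2, at 3.58 (adjusted p = 5.4e-04 and 6.9e-08).

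With skatole added, 7 of 27 targets were called lower (*Il6*, *Il1a*, *Lif*, *Il1b*, *Lcn2*, *Tnfrsf4* and *Pim1*), where 6.14% of all tested genes were. The study had already reported *Il6*, *Il1a* and *Il1b* as lower with skatole in these data, and the list was chosen with that known. The count is thus a description and not a test of the targets. The median was -0.21, against -0.10 for all tested genes. *Il6* went from 4.35, 3.69 and 5.01 TPM in LPS to 0.259, 0.139 and 0.379 TPM (-2.08, SE 0.16, adjusted p = 5.9e-05), and *Il1a* from 18.1, 20.9 and 15.2 TPM to 3.94, 4.78 and 3.10 TPM (-1.95, SE 0.17, adjusted p = 1.3e-04). The means of *Il6* and *Lif* were below 1 TPM in DMSO and in LPS + Ska. Both passed the filter only through LPS, so their calls are not independent of the filter. *Tnf* was at 207, 205 and 209 TPM in LPS + Ska, overlapping LPS, with a difference of -0.02 (95% interval -0.50 to 0.45). The difference was -0.10 for *Nfkbiz* (95% interval -0.76 to 0.56), 0.35 for *Ptgs2* (0.06 to 0.64, adjusted p = 0.07) and 0.09 for *Csf3* (-0.07 to 0.26). The intervals of *Tnf* and *Nfkbiz* largely carry the spread of DMSO, as the fit shares its estimate over all 3 groups. For *Tnf* the SD was 28.9 TPM in DMSO, 1.91 TPM in LPS and 1.97 TPM in LPS + Ska. Against DMSO, 17 were called higher and 4 lower (median 1.02, or 0.98 without those 3 genes), where 11.4% and 25.3% of all tested genes were (median -0.18).

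**Figure D4:**
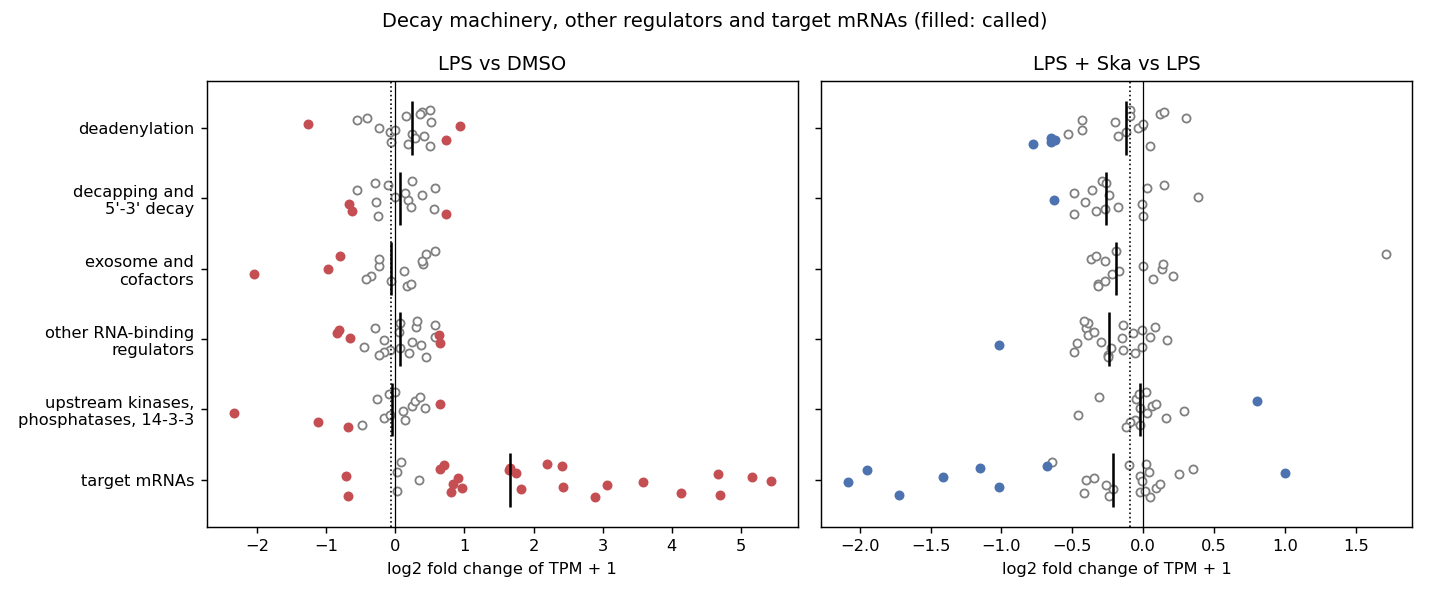
Log2 fold change of TPM + 1 of every tested gene of the 6 lists in LPS vs DMSO and in LPS + Ska vs LPS; filled points were called, short black lines are list medians and the dotted line is the median of all tested genes. The target list reaches 5.43 with LPS (*Csf3*, fitted from DMSO columns listed at 0) and -2.08 with skatole added (*Il6*, which passed the filter only through LPS).

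The heptamer shown above was present in 18 of the 27 tested targets. In LPS vs DMSO, the median change was 1.97 in targets with it and 0.90 in those without. The 2 sets overlapped widely, from 0.02 to 5.43 with it and from -0.71 to 5.16 without. *Csf3* and *Il6*, at 0 in every DMSO column, carry it, and *Lcn2*, also at 0, does not. The list was chosen by hand, 1 transcript was searched per gene and 3′ UTR length was not allowed for. A difference between the sets was not tested. In LPS + Ska vs LPS, the medians were -0.12 and -0.24, and in LPS + Ska vs DMSO they were 1.64 and 0.82.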

How the data were processed

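RNA-seq was performed by the authors on 9 samples of RAW264.7 cells, with groups taken from the labels. The authors deposited the values as TPM for 55401 Ensembl genes. The submitters' processing notes name fastp 0.20.1, HISAT2 2.2.1, StringTie 2.0 and mm10, without settings, and strand is not given in the sources used here. Reads of overlapping genes may therefore not be separable. Symbols matched 55141 identifiers.

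The members and gene lists were chosen with earlier results of these data known. Log2(TPM + 1) of all 9 columns was fitted with limma 3.58.1 (lmFit, then eBayes with a trend on intensity, R 4.3.3) in the 12819 genes whose mean reached 1 TPM. The spread was estimated over all 3 groups, so intervals of LPS + Ska vs LPS also carry the spread of the DMSO columns. The pseudocount of 1 shrinks the fold changes of low genes. Adjustment was by Benjamini-Hochberg, and genes were called at an adjusted p below 0.05 with a fold change above 1.5 or below 0.67. The fit was tested on simulated data with independent columns, which does not cover the tied columns of the LPS-treated groups. Named genes were the members, the 2 called genes of each list with the largest change in each comparison, *Tnf*, *Il6*, *Nfkbiz*, *Ptgs2*, and the 2 nearest profiles of each called member. *Cnot4*, *Cnot6*, *Parn*, *Mapk14*, *Lif*, *Il1b*, *Lcn2*, *Tnfrsf4* and *Pim1* were named after their values were seen, to complete counts or comparisons. A further result within the target list is not reported here.

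The 3′ UTR sequences and gene positions came from GENCODE M21 on GRCm38, the assembly of mm10. Refits used a pseudocount of 0.1, an unfiltered table, a minimum mean of 5 TPM, median-ratio scaling, rescaling after removal of ribosomal protein and mitochondrial-genome genes, adjusted p alone, the compared groups alone, no trend, a replicate block, each column left out, and recovered values. The depth of the samples is unknown, so no counting error could be given. Figures were drawn with matplotlib 3.10.9.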

Additional observations from a re-analysis of the deposited data

How the results depend on the processing

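Of 570 refitted member changes, 543 kept their direction and call, 22 crossed into a call, 5 turned in sign and 0 lost a call. Only a change called in the main fit could lose a call, and none was called in LPS + Ska vs LPS. The setting of adjusted p alone reuses the main fit without the fold limit, so it could only add calls. By adjusted p alone, 5 members were higher with LPS, 4 were lower in LPS + Ska vs LPS and 4 were higher in LPS + Ska vs DMSO. Over the leave-one-out fits the count higher with LPS ranged from 3 to 5, the latter without DMSO replicate 7, and the count lower in LPS + Ska vs LPS from 0 to 1, the latter without replicate 7 of either group. A pseudocount of 0.1 also gave 1, *Zfp36l1* at -0.63. In LPS + Ska vs LPS, *Rc3h1* turned to 0.01 and *Rc3h2* to 0.02 with median-ratio scaling; leaving out columns gave -0.20 to 0.04 and -0.19 to 0.03, positive without LPS + Ska replicate 7; *Tnf* turned to 0.08 with the scaling. *Hnrnpd* turned to 0.03 in LPS + Ska vs DMSO with the scaling. Over all genes, adjusted p alone gave 3354 higher and 4380 lower with LPS, 1139 and 2524 in LPS + Ska vs LPS, and 2915 and 5201 in LPS + Ska vs DMSO, and a mean TPM of at least 5 gave 516 lower in LPS + Ska vs LPS.

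With a replicate block the counts were 3 higher and 2 lower with LPS, 0 and 0 in LPS + Ska vs LPS, and 2 and 3 in LPS + Ska vs DMSO, and no member call changed, although the adjusted p of *Khsrp* in LPS + Ska vs LPS rose to 0.052. The *Arid5a* call with LPS was lost under the block (adjusted p = 0.065). Same-numbered columns deviated together with correlations of 0.384, 0.151 and 0.128 between LPS and LPS + Ska and of -0.032 to 0.08 for the other pairs. As the columns of both groups are tied, the 3 values depend on each other, and the numbering is not treated as a pairing. The cause of these changes was not tested.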
